A study of Mus musculus with 2 samples.

Results

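The miR-15/16 family with miR-322 and miR-503 was examined in smooth muscle cells cultured from mouse pulmonary arteries, whose contraction sets the width of these vessels. Its 7 members, miR-15a-5p, miR-15b-5p, miR-16-5p, miR-195-5p, miR-322-5p, miR-497-5p and miR-503-5p, were chosen by their miRBase mature identifiers. All 7 were found among the 739 features of the array table, each in a row with a single identifier, and all 7 had a value on both arrays. The 2 samples were wild-type cells and NOX1-deficient cells, both from male mice with the C57BL/6 strain background. NOX1 is an enzyme of the NADPH oxidase family that makes superoxide. Each sample was made from cells of 3 mice at passage 3, held for 24 hours in DMEM/F-12 medium with 10% fetal bovine serum, and each genotype is 1 array. The sources used here do not state the kind of NOX1 allele, or whether the mice were pooled before or after culture.

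A miRNA guides an Argonaute protein to messenger RNAs mainly through its seed, the bases near its 5′ end, and pairing there lowers the output of the target. Members of this family are known for restraining the cell cycle through targets such as cyclin D1, cyclin E1, CDK6, CHEK1 and CDC25A, and miR-15a and miR-16 also target the survival factor BCL2. Smooth muscle cells divide in serum-containing culture, and growth of these cells thickens the arterial wall in pulmonary hypertension.

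The mature sequences are shown because the seed defines the family and because the probes have to tell close relatives apart. They were taken from the RefSeq miRNA table of mouse build GRCm38.p6, where all 7 were matched, miR-195-5p under the name miR-195a-5p and miR-497-5p under the name miR-497a-5p. Each is written 5′ to 3′, with capitals marking the seed, bases 2 to 8.
miR-15a-5p: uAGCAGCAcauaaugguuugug
miR-15b-5p: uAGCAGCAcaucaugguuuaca
miR-16-5p: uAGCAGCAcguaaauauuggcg
miR-195-5p: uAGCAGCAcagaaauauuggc
miR-497-5p: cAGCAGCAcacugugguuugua
miR-322-5p: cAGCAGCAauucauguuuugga
miR-503-5p: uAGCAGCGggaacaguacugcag
The seed AGCAGCA was shared by 6 members, whereas miR-503-5p had AGCAGCG, which differs at the last seed base. The matching target letters are UGCUGCU for the 6 members and CGCUGCU for miR-503-5p. In the table, 10 of 1679 mature mouse miRNAs (0.596%) had the first seed, the other 4 being miR-195b, miR-6342, miR-6353 and miR-6419, and miR-503-5p alone had the second. No feature here is paired with those 4 names, so they are not reported.

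Over the whole mature sequence, seed included, the members ranged from close to distant relatives. Compared without gaps from the 5′ end, miR-16-5p and miR-195-5p were identical at 19 of 21 bases, the highest of the 21 pairs at 90.5%. Next came miR-15a-5p and miR-15b-5p at 18 of 22 bases (81.8%) and miR-15a-5p and miR-497-5p at 17 of 22 (77.3%). The lowest pair, miR-497-5p and miR-503-5p, matched at 10 of 22 bases (45.5%). The content of G and C ran from 40.9% in miR-15a-5p, miR-15b-5p and miR-322-5p to 56.5% in miR-503-5p. Probe sequences were not used here, and how far a probe for one member binds another was not tested.

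The genes lie in 4 pairs. Mir15a and Mir16-1 are 54 bases apart on chromosome 14 within the long non-coding gene Dleu2, and miR-15a-5p itself is at chr14:61632075-61632096 on the minus strand. Mir15b and Mir16-2 are 66 bases apart on chromosome 3 within the boundaries of Smc4, a condensin subunit gene, with miR-15b-5p at chr3:69009775-69009796 on the plus strand. Mir497 and Mir195a are 241 bases apart on chromosome 11, with miR-497-5p at chr11:70234730-70234751 and miR-195-5p at chr11:70235062-70235082, both on the plus strand. Mir322 and Mir503 are 200 bases apart on the X chromosome within the non-coding gene C430049B03Rik, with miR-322-5p at chrX:53054306-53054327 and miR-503-5p at chrX:53054027-53054049, both on the minus strand.

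Because miR-16-5p is made from both the chromosome 14 and the chromosome 3 pair, its 2 hairpins are shown with the identical mature arm in capitals.
Mir16-1: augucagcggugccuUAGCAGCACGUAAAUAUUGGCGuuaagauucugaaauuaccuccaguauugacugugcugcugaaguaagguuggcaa
Mir16-2: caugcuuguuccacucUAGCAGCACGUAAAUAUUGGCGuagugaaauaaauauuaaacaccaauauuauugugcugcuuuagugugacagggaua
The hairpins lie at chr14:61631880-61631972 on the minus strand and chr3:69009902-69009996 on the plus strand. The mature miRNA carries no mark of its source, so a reading of miR-16-5p is the sum over both loci.

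The values are intensities in arbitrary units on a linear scale, 1 per feature and array. Of the 739 features, 193 were null in wild-type and 214 in NOX1-deficient cells, 472 were measured on both arrays, and listed values ranged from 0.96 to 51870 units and from 0.93 to 51059 units. Brightness depends on the probe as well as on the amount of miRNA, so a member's intensity was compared between genotypes. Where members are called brighter or dimmer than one another, or are summed, this describes signal and not amount. With 1 array per genotype there is no spread between samples and no test, and no difference below can be called a change. Marker miRNAs of smooth muscle and of other cell types, the opposite arms of the hairpins and the neighbouring miR-351, miR-542 and miR-450 were not evaluated, since the sources used here pair no other feature with a name. The array does not measure NOX1 messenger RNA, so its loss was not checked.

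Of the 7 members, 4 read higher and 3 read lower in NOX1-deficient cells, and all 7 lay within 1.2-fold of wild-type, a bound chosen after the values were seen. Their log2 differences, NOX1-deficient minus wild-type, ranged from -0.10 to 0.21 with a median of 0.02. Over all 472 features measured on both arrays the median was 0.004, with 237 higher and 234 lower. Among the 236 brighter features, those with a geometric mean intensity of at least 4.43 units, the median was 0.01 and 175 (74.2%) lay within 1.2-fold, as did 273 of all 472 (57.8%). Of the members, 5 were among the brightest 118 features, so neither background matched them in brightness. At a threshold of 1.5-fold, 0 members were higher, beside 3 of the 236 brighter features (1.27%) and 19 of all 472 (4.03%). At the same threshold 0 members were lower, beside 4 of the brighter features (1.69%) and 34 of all 472 (7.20%). With backgrounds this low, a count of 0 among 7 does not set the members apart.

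**Figure D1:**
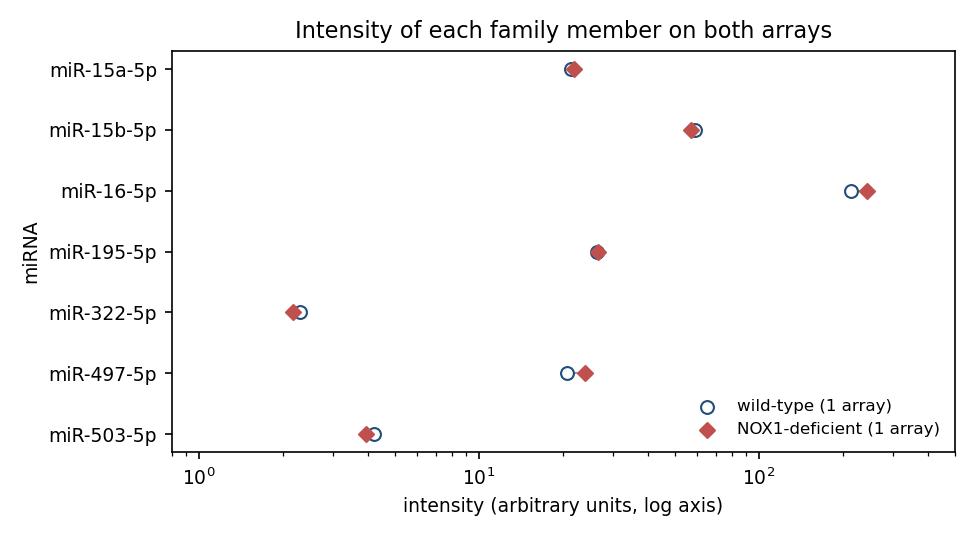
Intensity of each member in arbitrary units on a log axis, with an open circle for the wild-type array and a filled diamond for the NOX1-deficient array, 1 array each and no error bars. The 2 symbols of each member lie close together, the widest gaps being those of miR-16-5p (212.5 and 242.2 units) and miR-497-5p (20.6 and 23.8 units).

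miR-16-5p (MIMAT0000527), known for slowing the entry of cells into S phase, read 212.5 units on the wild-type array against 242.2 units on the NOX1-deficient one. The second reading was 1.14-fold higher, a log2 difference of 0.19. It ranked 42nd and 41st by brightness on the arrays, so its place among the features was nearly the same. Of the 50 features nearest to it in brightness, which spanned 73.6 to 681.3 units, 12 differed by more in either direction. The differences of the 50 had a median of 0.02 and an SD of 0.18. The reading of miR-16-5p therefore lay about 1 such SD above 0.

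miR-15a-5p (MIMAT0000526), which is processed from the same chromosome 14 locus, read 21.4 units without and 21.9 units with the NOX1 deficiency, a log2 difference of 0.03. miR-15b-5p (MIMAT0000124), the chromosome 3 partner, read 59.3 units in wild-type cells against 57.2 units without NOX1, a log2 difference of -0.05. Both readings differed by less than 1.1-fold between genotypes. The log2 difference of miR-16-5p exceeded that of miR-15a-5p by 0.15 and that of miR-15b-5p by 0.24. After quantile normalization these gaps shrank to 0.03 and 0.11.

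The chromosome 11 pair is known from the mouse heart, where miR-195 rises after birth as cardiac muscle cells leave the cell cycle. miR-497-5p (MIMAT0003453) read 20.6 units in wild-type cells against 23.8 units without NOX1. At 1.16-fold, or 0.21 on the log2 scale, this was the widest difference among the members with the deposited values. With log2(intensity + 50) it became 0.07 and that of miR-16-5p, at 0.15, was wider. Among the 50 features nearest in brightness, 19 differed by more, and their differences had an SD of 0.23. Its partner miR-195-5p (MIMAT0000225) read 26.3 and 26.7 units, a log2 difference of 0.02. Of the 50 features of like brightness, which include miR-15a-5p and miR-497-5p, 48 differed by more than miR-195-5p did. The gap between the partners was 0.19 with the deposited values, 0.31 after quantile normalization and 0.06 with log2(intensity + 50), which shrinks the differences of dim features most.

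The differences of the closest relatives in sequence were also set side by side. miR-16-5p and miR-195-5p, identical at 19 of 21 bases, had log2 differences of 0.19 and 0.02, a gap of 0.17. It was 0.17 after quantile normalization, 0.16 with the loess curve and 0.15 with log2(intensity + 50). Median centring adds the same value to every difference and cannot alter a gap. The gap was of the size of the SDs among features of like brightness (0.18 and 0.22).

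The X chromosome pair is known from muscle cell lines, where miR-322 and miR-503 promote cell cycle exit through CDC25A, and from pulmonary artery endothelial cells, where the human counterparts target FGF2. miR-503-5p (MIMAT0003188), the member with the divergent seed, read 4.23 units in wild-type cells against 3.96 units without NOX1, a log2 difference of -0.10. miR-322-5p (MIMAT0000548) read 2.29 and 2.16 units, a log2 difference of -0.08. These were the dimmest of the 7 readings and the only members outside the 236 brighter features. The log2 differences of the partners were 0.01 apart with the deposited values and 0.14 apart after quantile normalization.

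In units, both readings of miR-322-5p lay near the lowest listed values. miR-322-5p was 2.39 times the lowest listed wild-type value and 2.32 times the lowest NOX1-deficient one. The table does not say what a null stands for, and features of that brightness could be null on 1 array. The highest wild-type reading with a null in NOX1-deficient cells was 2.28 units, and the highest in the opposite sense was 2.93 units. Of the 50 wild-type readings from 2 to 2.5 units, 3 had a null on the other array, as did 3 of the 44 NOX1-deficient readings in that range. miR-503-5p lay above this zone, at 4.41 times the lowest listed wild-type value and 4.26 times the lowest NOX1-deficient one. By brightness it ranked 244th and 249th on the arrays, against 336th and 327th for miR-322-5p. The 50 features nearest in brightness had SDs of 0.55 for miR-322-5p and 0.35 for miR-503-5p, and 44 and 38 of them differed by more than the member did. Around miR-322-5p, 32 of the 50 features were on the lower side without NOX1, their median being -0.26, and 29 of the 50 had a more negative difference than its own -0.08.

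**Figure D2:**
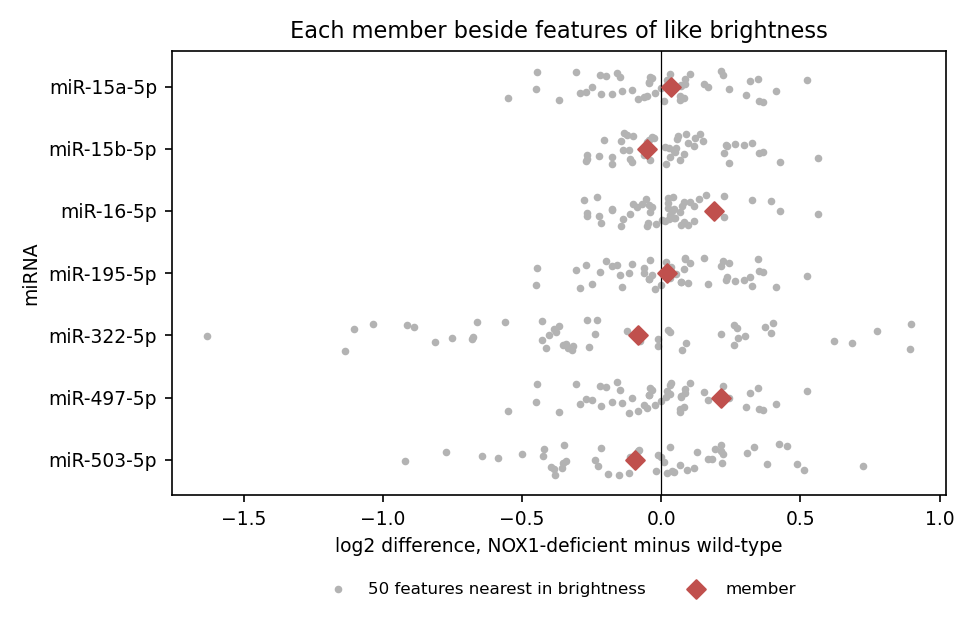
Log2 difference (NOX1-deficient minus wild-type) of each member as a red diamond, beside the 50 features nearest to it in brightness as grey points, whose vertical scatter only separates them. All 7 diamonds lie inside the spread of the grey points, which has an SD of 0.18 at miR-16-5p and 0.55 at miR-322-5p, and miR-15a-5p shares 48 of its 50 with miR-497-5p and 40 with miR-195-5p.

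Against the whole table, the 5 brighter members all fell in the brightest 118 features measured on both arrays, with geometric means of at least 19.0 units, where the log2 differences had an SD of 0.18. Of the 236 brighter features, 38 had a higher difference than miR-497-5p and 39 a higher one than miR-16-5p. The remaining 3 of these 5 members lay nearer the middle, with 104 features higher than miR-15a-5p, 115 higher than miR-195-5p and 144 higher than miR-15b-5p. Differences of less than 1.1-fold, another bound chosen after the values were seen, were found for 3 of these 5 members and 115 of the 236 brighter features (48.7%). With the 2 dimmer members included the count was 5 of 7, beside 164 of all 472 (34.8%). Neither background matches the members in brightness, and dimmer features differed by more. The median absolute log2 difference was 0.10 in the brightest 118 features, itself less than 1.1-fold, and 0.34 in the second dimmest 118. These counts therefore do not set the members apart.

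**Figure D3:**
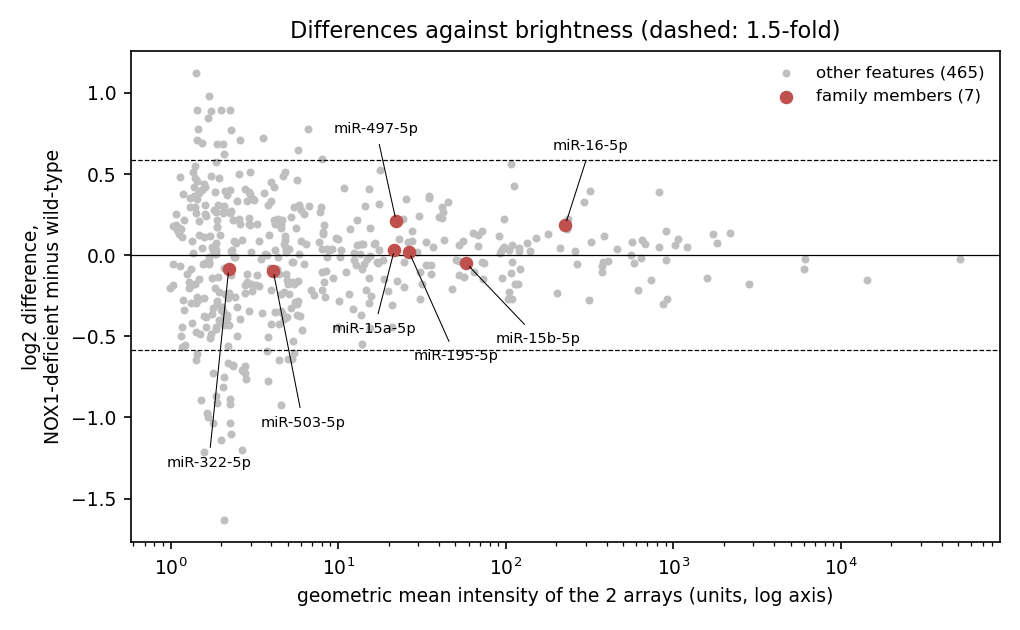
Log2 difference (NOX1-deficient minus wild-type) against the geometric mean intensity of both arrays on a log axis, with the 7 members in red and the other 465 features measured on both arrays in grey. The members sit between -0.10 and 0.21, inside the dashed lines at 1.5-fold, and the grey points spread more widely at the dim end, with an SD of 0.47 in the second dimmest group of 118 features against 0.18 in the brightest.

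The intensities of the 7 members summed to 346.6 units for wild-type and to 377.9 units for NOX1-deficient cells, a ratio of 1.09. Such a sum gives most weight to its brightest probe, here that of miR-16-5p. Without miR-16-5p the sums were 134.05 units for wild-type and 135.73 units for NOX1-deficient cells, a ratio of 1.01. The members together held 0.302% of all listed wild-type intensity and 0.337% of the NOX1-deficient total, which describes brightness and not abundance.

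The direction of the small differences depended on the scaling between the arrays. miR-15a-5p, miR-16-5p and miR-497-5p were higher in NOX1-deficient cells under all 5 scalings computed. Their log2 differences ran from 0.01 to 0.13, from 0.11 to 0.29 and from 0.07 to 0.31. Only quantile normalization and the loess curve could have turned these positive differences negative. A constant added before the logarithm keeps every sign, and median centring here only raises the differences. Median centring, which adds 0.10 to every difference, turned miR-15b-5p, miR-322-5p and miR-503-5p to positive values of 0.05, 0.01 and 0.001, so that all 7 read higher. It also moved the median of all 472 features to 0.10, and relative to that shift the same 3 members were still lower than the typical feature. Quantile normalization turned miR-195-5p to -0.06 and miR-322-5p to 0.07.

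**Figure D4:**
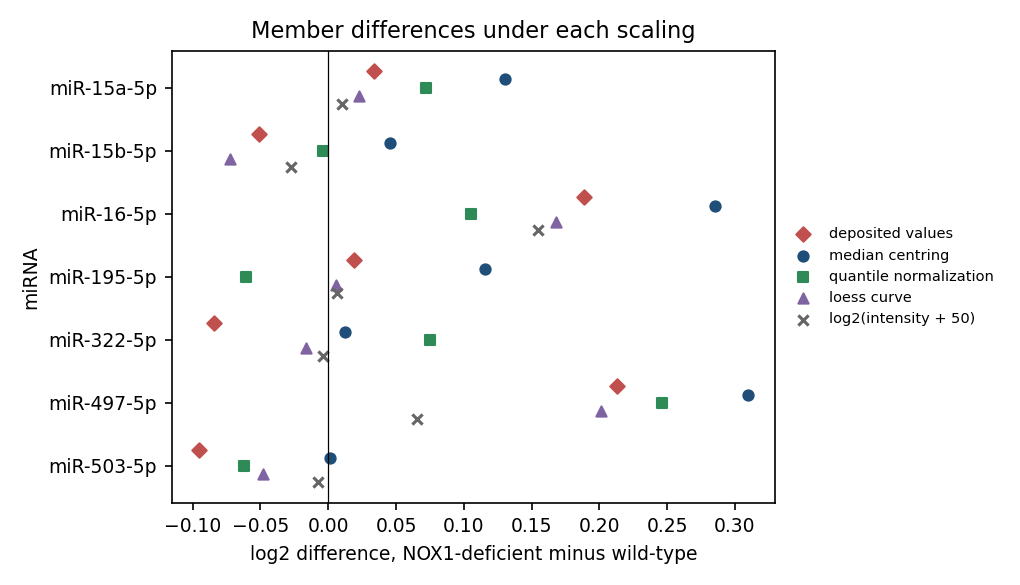
Log2 difference (NOX1-deficient minus wild-type) of each member with the deposited values and under 4 other scalings, 1 symbol per scaling. The symbols of miR-15a-5p, miR-16-5p and miR-497-5p stay to the right of 0, those of the other 4 members lie on both sides. Only quantile normalization and the loess curve could have moved a positive difference to the left of 0.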

How the data were processed

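The authors deposited 1 intensity per feature and array. Per the labels' protocols, the miRNeasy mini kit was used for total RNA and a miRCURY LNA kit for labelling with Hy5, a red dye. The sources used here do not state the image analysis, background correction, scaling between arrays, averaging of spots or the meaning of a null. That the deposited intensity is linear was read from its values, and signal over background is unknown.

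The log2 differences were computed from the deposited values without a pseudocount, for the 472 features measured on both arrays. Member names come from the list of mature identifiers that defines the family. The members and the alternatives were chosen with earlier results of these data known. All 7 members were named whatever their values. With 1 array per genotype no test was made. The 50 features of like brightness are those nearest in mean log2 intensity, and they overlap between members. For bright members they span a wide range, from 73.6 to 681.3 units for miR-16-5p. Alternatives were log2(intensity + 50), quantile normalization, median centring and a loess curve (span 0.4). The procedure was tested on simulated data with planted differences of 1.5-fold or more. That test does not cover differences as small as those of the members. Its noise was also smaller than the spread of the measured features, so it says little about recovery in these data. It counted features past 2-fold, not 1.5-fold, and left out log2(intensity + 50). Python 3.11.15, numpy 2.4.6, pandas 2.3.3, statsmodels 0.14.6 and matplotlib 3.10.9 were used.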

Additional observations from a re-analysis of the deposited data

How the results depend on the processing

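Past 1.5-fold, 0 members were higher and 0 lower, and both counts were also 0 under median centring, quantile normalization, the loess curve, log2(intensity + 50) and at a 2-fold threshold. Of the 28 recomputed member differences, 23 kept their sign and moved by less than the SD of the 50 features of like brightness. The other 5 changed sign. Under median centring they were miR-15b-5p at 0.0458, miR-322-5p at 0.0123 and miR-503-5p at 0.0014, and under quantile normalization miR-195-5p at -0.0606 and miR-322-5p at 0.0748. Median centring turned its 3 by construction, since it adds 0.10 to each difference, and for quantile normalization the cause was not tested. Part of the 23 was likewise fixed in advance. The log2(intensity + 50) scaling cannot change a sign, and median centring here cannot turn a positive difference negative. The 0.10 added by median centring is also below each SD of features of like brightness, the smallest being 0.18. The median member difference, 0.02, ranged from 0.005 with the loess curve to 0.12 with median centring. Features past 1.5-fold, higher and lower, numbered 3 and 4 among the brighter features, 19 and 34 among all 472, and 0 and 0 in the brightest quartile. Without the brightest feature of each array, the members' share of the summed intensity became 0.552% in wild-type and 0.619% in NOX1-deficient cells, by construction of the smaller total. Opposite arms, cluster neighbours and other features with a member's seed were planned and not run, since those features have no names here. No paired analysis was possible because there is a single array of either genotype, so no replicate could be left out.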
